A study of Mus musculus with 27 samples.

Results

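The 10 genes described here encode S100 calcium-binding proteins: S100a1, S100a4, S100a6, S100a8, S100a9, S100a10, S100a11, S100a13, S100a16 and S100b. They are 10 of 53299 genes in a count table of hepatic stellate cells (HSCs) from mouse liver. The family was chosen by measured values: S100a6 stood among the genes that rose most over healthy cells at 72 h after a single carbon tetrachloride (CCl4) injection and at 14 days after a course of injections. For that reason no gene of the family was tested in these 2 comparisons, and S100a6 was tested only between groups that the choice did not use. Of the 10 genes, 9 passed the filter on low counts that left 18758 genes to test. S100b did not pass.

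Bulk RNA was sequenced from HSCs of male Balb/c mice, which were sorted by the ultraviolet fluorescence of their stored vitamin A and were not cultured. Healthy mice received no injection and were 10 to 12 weeks old (n = 4). Acute injury was a single intraperitoneal dose of 0.5 µL CCl4 per gram of body weight in mineral oil at 10 to 12 weeks of age, with 3 libraries of HSCs collected after 24 h, 4 after 72 h and 4 after 7 d. Chronic injury was 8 such injections over 4 weeks, started at 8 to 10 weeks of age, with 4 libraries of HSCs each at 24 h, 72 h and 14 d after the course. The healthy mice were not injected with mineral oil, so the vehicle and CCl4 cannot be told apart. The chronic groups also differed from the healthy and acute groups in age. Each library was an experiment of its own according to the study's methods.

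S100 proteins are small calcium sensors that mostly work as dimers: calcium opens a surface that then grips a partner protein. S100a10 is the exception, since it holds its open shape without calcium and binds annexin A2 at the plasma membrane, while S100a11 binds annexin A1. S100a8 and S100a9 pair up as calprotectin, an abundant protein of neutrophils and monocytes that can be secreted and signals through Tlr4 and Ager. In fibroblast-like cells, S100a4 and S100a6 are often read as marks of an activated or motile state.

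Total counts were 6314801 to 7580709 in 8 libraries of lower depth (chronic 24 h replicates 1 and 2, chronic 72 h replicates 1 and 2, and all 4 chronic 14 d replicates) and 10792560 to 13052838 in the other 19. Depth and group cannot be told apart at chronic 14 d. All 16 stellate cell markers searched, such as Lrat, Reln and Des, were present in every group, with a summed level of 37283 to 55024 CPM (counts scaled to a library total of 1000000) in healthy cells and 17021 to 20094 CPM at chronic 24 h. The 16 markers did not move alike. The medians in healthy cells and at chronic 24 h were 20488 and 8583 CPM for Dcn and 8238 and 1925 CPM for Ecm1. They were 1055 and 1053 CPM for Cygb, 558 and 674 CPM for Des, and 1038.5 and 2139 CPM for Pdgfrb. Markers of other liver cells also varied. The summed level of 16 macrophage and monocyte genes was 166 to 691 CPM in healthy cells and 4292 to 10846 CPM at acute 7 d. In bulk RNA, fewer cells of a type and less RNA per cell cannot be told apart.

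Of the 10 genes, 9 lie on chromosome 3 and form 2 groups there (build GRCm38.p6, GENCODE M21 gene models). A set of 7 (S100a1, S100a13, S100a16, S100a4, S100a6, S100a8 and S100a9) shares 184.688 kb, and S100a11 and S100a10 share a further 44.156 kb that starts 2.82 Mb away. S100a6 (ENSMUSG00000001025) covers chr3:90612882-90624181 on the plus strand, S100a4 (ENSMUSG00000001020) chr3:90603771-90606045 on the plus strand, S100a9 (ENSMUSG00000056071) chr3:90692632-90695721 on the minus strand and S100a11 (ENSMUSG00000027907) chr3:93520488-93526287 on the plus strand. S100b (ENSMUSG00000033208) is on chromosome 10. The starts of S100a1 on the minus strand and of S100a13 on the plus strand are separated by only 42 bases.

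Upstream windows of 250 bases were read from RefSeq for 9 of the 10 genes, and S100a10 had no entry. Windows are shown for the genes that the results below turn on, cut at the annotated gene start, on the strand of the gene from 5′ to 3′. S100a6 is the gene that led to the choice of the family, and none of the 5 motifs searched was found in its window, chr3:90612644-90612881 on the plus strand. The changes of S100a11 from 24 h to 72 h had opposite signs after acute and chronic injury, each by less than 2-fold. Its window is shown for chr3:93520246-93520487 on the plus strand. Capitals there mark a CACGTG E-box and 2 matches to the AP-1 motif TGANTCA. S100a4, which had no counts in healthy cells, is shown for chr3:90603520-90603769 on the plus strand, with a TATAAA box in capitals. S100a9, which had counts in every library after injury, is shown for chr3:90695722-90695971 on the minus strand, with a match to the C/EBP motif TTGCNNAA in capitals.
S100a6: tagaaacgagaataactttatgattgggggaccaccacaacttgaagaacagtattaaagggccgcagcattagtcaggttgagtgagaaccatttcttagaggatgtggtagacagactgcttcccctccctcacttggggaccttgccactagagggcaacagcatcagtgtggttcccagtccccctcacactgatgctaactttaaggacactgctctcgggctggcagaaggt
S100a11: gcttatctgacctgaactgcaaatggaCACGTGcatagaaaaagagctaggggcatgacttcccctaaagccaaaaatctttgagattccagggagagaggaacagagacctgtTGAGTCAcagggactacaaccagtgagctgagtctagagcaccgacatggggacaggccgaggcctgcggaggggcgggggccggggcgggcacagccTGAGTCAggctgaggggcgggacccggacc
S100a4: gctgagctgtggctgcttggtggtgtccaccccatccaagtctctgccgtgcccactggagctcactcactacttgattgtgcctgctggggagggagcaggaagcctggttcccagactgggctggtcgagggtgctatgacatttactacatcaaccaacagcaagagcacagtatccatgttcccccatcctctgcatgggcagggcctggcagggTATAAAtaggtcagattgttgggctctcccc
S100a9: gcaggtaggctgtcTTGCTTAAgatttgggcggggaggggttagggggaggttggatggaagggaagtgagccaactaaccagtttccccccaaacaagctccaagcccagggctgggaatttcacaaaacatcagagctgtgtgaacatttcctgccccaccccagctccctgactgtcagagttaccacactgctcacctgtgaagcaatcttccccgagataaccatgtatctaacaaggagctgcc

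Motifs were searched on both strands of the first window of each gene, and the TEAD motif GGAATG was the fifth. The AP-1 motif was held by 6.87% of 27025 windows over all genes, the E-box by 6.05%, TTGCNNAA by 9.55%, TATAAA by 13% and GGAATG by 12.6%. The windows of S100a4 and S100a8 held TATAAA, 31 and 30 bases before the RefSeq start. GGAATG was in no S100 window. Of the genes with a second RefSeq start, S100a16 held TGANTCA before it. These matches describe letters only.

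S100a6 (calcyclin) was close to absent from healthy HSCs and present in every library after injury. Its level in the healthy libraries was 1.36, 1.36, 0 and 0 CPM, from counts of 15, 14, 0 and 0. After acute injury it was 19.6, 12.4 and 7.72 CPM at 24 h, 23.8, 32.3, 59.2 and 55.2 CPM at 72 h and 42.0, 41.2, 47.8 and 33.5 CPM at 7 d. After the chronic course it was 31.1, 44.7, 156 and 123 CPM at 24 h, 13.3, 18.4, 21.5 and 40.6 CPM at 72 h and 13.1, 13.7, 15.0 and 10.3 CPM at 14 d. No library of an injured group reached down to the healthy ones, and the widest spread within a group was at chronic 24 h. Counts over all libraries were either 0 or at least 14, so the zeros in 2 healthy libraries stood beside counts of 14 and 15 in the other 2.

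**Figure D1:**
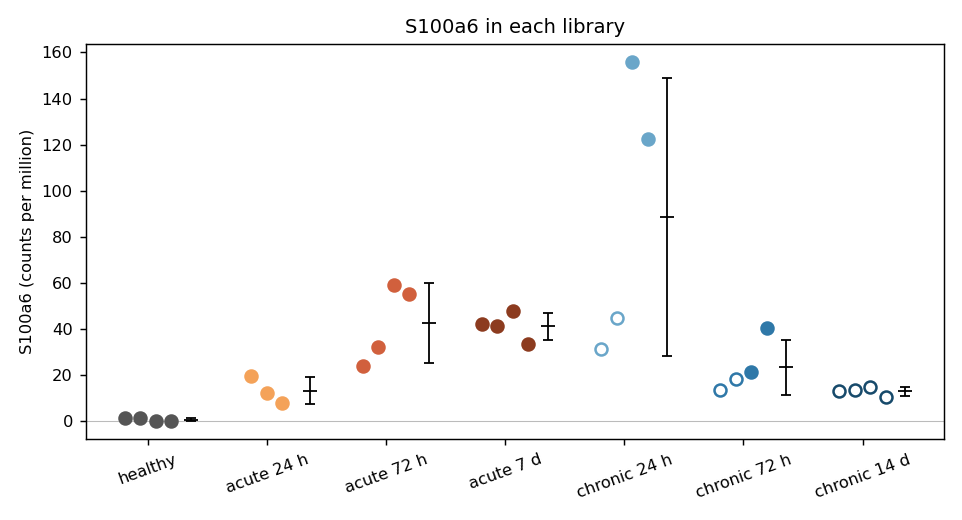
Level of S100a6 in CPM (vertical axis) in each of 27 libraries by group (horizontal axis), where open circles are the 8 libraries of lower depth and black bars are the mean ± SD. The healthy libraries sit between 0 and 1.36 CPM and all injured libraries between 7.72 and 156 CPM, with the 2 highest at chronic 24 h.

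Group means of S100a6 followed the order chronic 24 h (88.6 ± 60.3 CPM, SD, n = 4), acute 72 h (42.6 ± 17.3), acute 7 d (41.1 ± 5.85), chronic 72 h (23.5 ± 11.9), acute 24 h (13.3 ± 6.01), chronic 14 d (13.01 ± 1.996) and healthy (0.680 ± 0.785). Each neighbour in this order overlapped the next in its libraries, except chronic 14 d and healthy. The log2 fold change over healthy cells, given without a test because the choice of the family used healthy cells, was 7.04 at chronic 24 h, 5.98 (SE 0.74) at acute 72 h, 5.93 at acute 7 d, 5.13 at chronic 72 h, 4.30 at acute 24 h and 4.27 (SE 0.71) at chronic 14 d.

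The comparison of a repeated with a first injury at 24 h was not used to choose the family. S100a6 was higher there after the chronic course (log2 fold change 2.74, SE 0.66, edgeR adjusted p = 0.00427). All 4 chronic libraries were above all 3 acute libraries, and the call held when any 1 library was left out. At chronic 24 h the 2 libraries of lower depth had a mean of 37.9 CPM and the 2 of higher depth 139 CPM. Among libraries of higher depth alone the log2 fold change was 3.35 (edgeR adjusted p = 0.00561). The part of depth in the spread at chronic 24 h was not tested.

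S100a6 then fell with time after the chronic course and rose after a single injection, over different intervals whose difference was not tested. It fell from 24 h to 72 h after the chronic course (log2 fold change -1.91, SE 0.57, edgeR adjusted p = 0.0239), although chronic 72 h replicate 4 (40.6 CPM) lay above chronic 24 h replicate 1 (31.1 CPM). It rose from 24 h to 7 d after a single injection (log2 fold change 1.63, SE 0.63, edgeR adjusted p = 0.0421), with no overlap. Both calls were near the threshold. The fall was lost without chronic 24 h replicate 3 or 4 or chronic 72 h replicate 1, 2 or 3 (adjusted p from 0.0618 to 0.101). It was also lost among higher-depth libraries alone (log2 fold change -2.14, adjusted p = 0.112). The rise was lost without acute 24 h replicate 2 or 3 or acute 7 d replicate 1, 2 or 3 (adjusted p from 0.0619 to 0.156). Between chronic 72 h and acute 7 d the log2 fold change of S100a6 was -0.80 (SE 0.56), which did not pass the test.

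The 5 genes whose pattern over the 27 libraries came closest to that of S100a6 were Dclk1, a microtubule-associated kinase, Rpp25, Col12a1, a fibril-associated collagen, Fhl2, and Ptgs2, the inducible prostaglandin synthase. Closeness was the root mean square difference of centred log2 CPM among 10293 genes, and was 0.99 for Dclk1, 1.08 for Rpp25, 1.09 for Col12a1, 1.13 for Fhl2 and 1.17 for Ptgs2. All of these points share libraries and depth. Ranking by Pearson's correlation instead kept only Dclk1 and Col12a1 among the first 5.

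Among genes that passed the filter, S100a4 (also called Fsp1) and the calprotectin pair were the others absent or nearly so from healthy cells. S100b, which did not pass, also had 0 counts there. S100a4 had 0 counts in all 4 healthy libraries. After acute injury it was 0.533, 0 and 0 CPM at 24 h, 1.77, 0.951, 3.41 and 3.64 CPM at 72 h and 8.00, 9.75, 10.1 and 2.53 CPM at 7 d. After the chronic course it was 2.10, 2.88, 3.68 and 2.72 CPM at 24 h, 1.20, 1.998, 0 and 0.939 CPM at 72 h and 2.70, 1.45, 2.64 and 0 CPM at 14 d. The highest levels were therefore at acute 7 d, where 3 of 4 libraries were at least 8.00 CPM and no other library exceeded 3.68 CPM. These are low levels, from at most 126 counts in a library. S100a4 lies under another gene model of the same strand, Gm42674, which had 0 counts in all libraries.

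Since S100a4 was at 0 in healthy cells, its change is given as a lower bound against a floor of 3 counts per library. That floor covers counting error only. A 0 could stand beside more counts in the same group, as at chronic 14 d (20, 11, 22 and 0 counts of S100a4). The bounds therefore hold only if the healthy zeros stand for at most 3 counts. It was at least 28.3-fold higher at acute 7 d, at least 10.6-fold at chronic 24 h and at least 3.84-fold at chronic 72 h, and S100a4 passed the edgeR test at all 3 times (adjusted p = 0.000144 at acute 7 d and 0.00841 at chronic 72 h). Absent from healthy cells, S100a4 had passed the filter only through the injured groups. These calls against healthy therefore add no separate support to the bounds. The chronic 72 h call was lost among higher-depth libraries alone (log2 fold change 5.54, edgeR adjusted p = 0.066). At acute 24 h only 1 of 3 libraries had counts and the test was not passed (adjusted p = 0.126). S100a4 rose from acute 24 h to acute 7 d (log2 fold change 5.34, SE 1.21, edgeR adjusted p = 0.00148) and to acute 72 h (log2 fold change 3.71, SE 1.17, edgeR adjusted p = 0.0255). It was higher at chronic 24 h than at acute 24 h (log2 fold change 3.93, SE 1.18, edgeR adjusted p = 0.0208). The last 2 calls were lost without acute 24 h replicate 2 or 3, which were both at 0 (adjusted p from 0.0807 to 0.107), and that to acute 72 h also without acute 72 h replicate 3 or 4. The sizes rested on 6 counts in acute 24 h replicate 1. Without that library acute 24 h was at 0, the 3 calls were kept and the fitted values were 9.33, 7.70 and 7.92, which depend on the prior count.

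The level of macrophage and monocyte genes was highest in the same group as that of S100a4, and so was the summed level of 16 cholangiocyte, mesothelial and portal fibroblast genes, which was 1301 to 5389 CPM at acute 7 d and 167 to 250 CPM in healthy cells. Spp1 made up most of that sum at acute 7 d, with a median of 3013 CPM. From healthy cells to acute 7 d the median of Fbln2, a matrix protein of portal fibroblasts, went from 3.78 to 104 CPM, that of Wt1, a transcription factor of mesothelial cells, from 3.74 to 49.6 CPM and that of Cd34 from 15.5 to 74.0 CPM. Eln (elastin) was 64.6 to 127 CPM in healthy cells and 279.7 to 399.6 CPM at acute 7 d. The mesothelial genes Gpm6a and Upk3b reached 18.4 and 11.5 CPM at acute 7 d and Msln 0.241 CPM, and the cholangiocyte genes Krt19, Krt7 and Epcam reached 6.89, 1.84 and 3.75 CPM. The part of these cells in the level of S100a4 was not tested.

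S100a8 and S100a9 were near 0 in healthy cells and rose after injury, and S100a9 was the more abundant of the pair. S100a8 had 0 counts in all 4 healthy libraries, and S100a9 had 18 counts (1.63 CPM) in healthy replicate 1 and 0 in the other 3. S100a9 was 11.1, 7.63 and 2.02 CPM at acute 24 h, 3.45, 5.36, 5.20 and 5.11 CPM at acute 72 h and 18.7, 6.80, 6.92 and 9.80 CPM at acute 7 d. It was 10.0, 18.5, 4.38 and 7.19 CPM at chronic 24 h, 9.99, 11.3, 6.06 and 13.5 CPM at chronic 72 h and 28.6, 23.3, 25.3 and 18.8 CPM at chronic 14 d. All injured libraries were thus above all healthy ones, and the 14 d recovery group was the highest, with every library above those of the other groups, though only just (18.8 against 18.7 CPM in acute 7 d replicate 1). That group holds only libraries of lower depth.

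S100a8 was 6.88, 6.18, 3.84 and 18.2 CPM at chronic 14 d, and in the other injured groups it ranged from 0 to 7.03 CPM. It was absent from 1 of 3 libraries at acute 24 h, 2 of 4 at acute 72 h and 2 of 4 at chronic 72 h. The lower bounds for S100a8 again hold only if the healthy zeros stand for at most 3 counts per library. At chronic 72 h zeros of S100a8 stood beside counts of 17 and 26. S100a8 was at least 14.4-fold higher than healthy at acute 7 d and at least 15.2-fold at chronic 24 h. At chronic 14 d it was at least 32.6-fold higher, which became at least 20.9-fold without chronic 14 d replicate 4. The bounds were 4.15-fold at acute 24 h (2.26-fold without replicate 1), 4.13-fold at chronic 72 h (2.51-fold without replicate 2) and 1.05-fold at acute 72 h, where the mean fell under the floor without replicate 2. The pair moved together only in part. Both genes had counts in 18 libraries and S100a9 had the higher count in 23, with S100a8 making up 9.30% to 51.0% of their joint count where both were present. Chronic 14 d replicate 4, which had the most S100a8, had the least S100a9 of its group.

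S100a9 passed the edgeR test against healthy at acute 24 h (log2 fold change 4.06, SE 0.83, adjusted p = 0.00059), acute 7 d (4.66, SE 0.82, adjusted p = 0.000217) and chronic 72 h (4.62, SE 0.82, adjusted p = 0.000281), and also at chronic 24 h. The size of these values rested on the 18 counts of healthy replicate 1. Without that library healthy cells were at 0 and the fitted values were 9.19, 9.80 and 9.75, which depend on the prior count. With only the 2 groups compared the acute 24 h call of S100a9 was lost (edgeR adjusted p = 0.0556). Both S100a8 and S100a9, at or near 0 in healthy cells, had passed the filter only through the injured groups. Their calls against healthy therefore add no separate support to the levels given above. S100a8 was called at the same 4 times. Its call at acute 24 h was lost without acute 24 h replicate 1, and that at chronic 72 h without healthy replicate 2 or 3 or chronic 72 h replicate 2 or 3 and among higher-depth libraries alone (edgeR adjusted p = 0.0722). Between chronic 24 h and chronic 14 d the log2 fold change of S100a9 was 1.27 (SE 0.65, edgeR adjusted p = 0.171), which did not pass the test even though the libraries did not overlap.

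Neutrophil genes were low in all groups and moved partly with the pair. The summed level of 16 neutrophil genes was 0.926 to 1.65 CPM in healthy cells, 12.5 to 33.0 CPM at acute 72 h, 46.9 to 116 CPM at chronic 24 h and 26.4 to 52.2 CPM at chronic 14 d. In healthy cells 12 of the 16 were at 0, among them Ly6g, Mpo, Elane, Camp and Ltf. At chronic 14 d 15 of 16 had counts in at least some libraries, with Ngp reaching 16.9 CPM, Csf3r 9.97 CPM and Ly6g 1.32 CPM. The medians there were 9.58 CPM for Ngp, 7.53 CPM for Csf3r and 0 CPM for Ly6g, Elane, Camp and Ltf. The sum was highest at chronic 24 h, where S100a9 was not. Lcn2, which injured hepatocytes also make, was its largest part there at up to 64.1 CPM. The median of Lcn2 was 34.3 CPM at chronic 24 h and 5.15 CPM at chronic 14 d. Macrophage and monocyte genes, summed, were 887 to 2250 CPM at chronic 14 d and at their highest at acute 7 d. The part of neutrophils and monocytes in S100a8 and S100a9 was not tested.

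**Figure D2:**
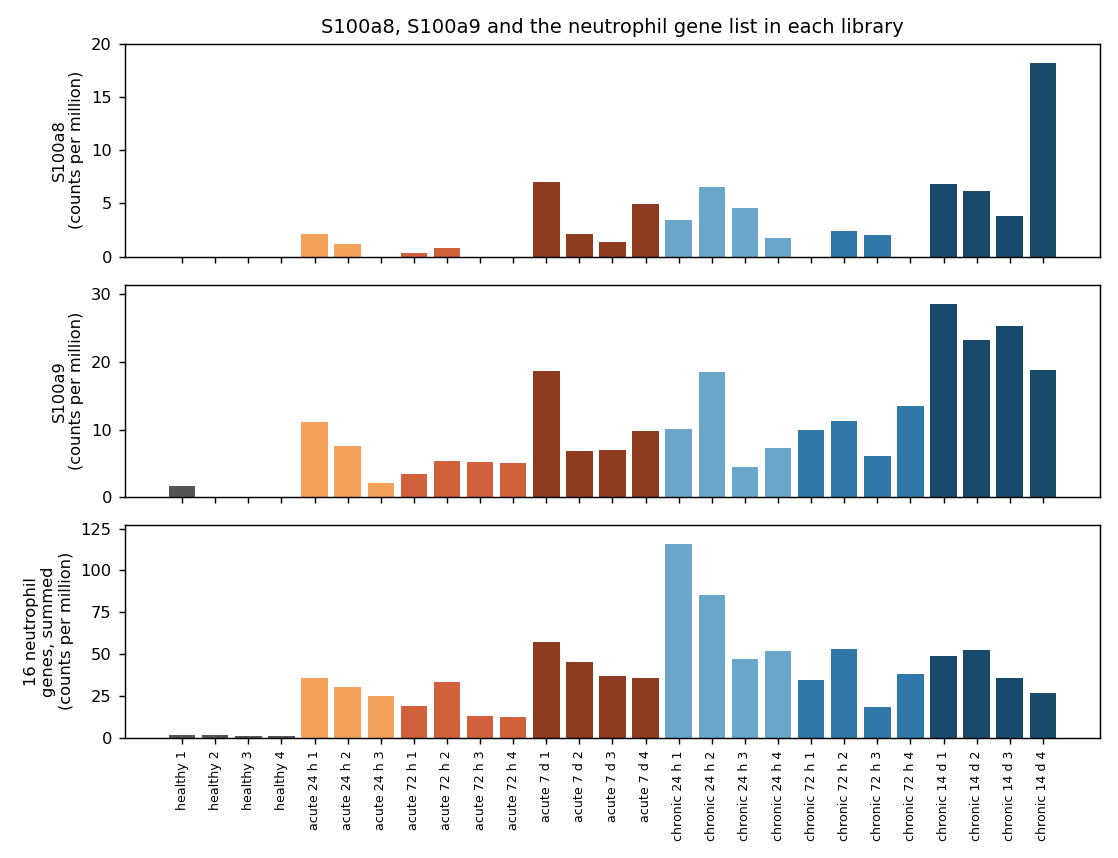
S100a8 (top), S100a9 (middle) and the summed level of 16 neutrophil genes (bottom) in CPM (vertical axes) in each library (horizontal axis), with bars coloured by group. S100a9 is highest in the 4 chronic 14 d libraries (18.8 to 28.6 CPM) while the neutrophil sum is highest at chronic 24 h (46.9 to 116 CPM).

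Among the same 10293 genes, none came as close to S100a8 as the fifth gene did to S100a6 (1.17). The nearest by the same measure were Cyp1b1 (1.496), Fabp4, Ccl6, Selplg and Cers6. Genes with a mean log2 CPM under 3, such as Ly6g and Mpo, were not compared. Ranking by Pearson's correlation kept only Cyp1b1 and Fabp4 among the first 5.

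S100a16 rose at every time tested and most after the chronic course. It was 7.51, 7.49, 10.3 and 14.9 CPM in healthy cells, 30.3, 23.1 and 16.4 CPM at acute 24 h and 44.6, 46.8, 55.2 and 69.7 CPM at chronic 24 h. All 4 chronic 24 h libraries were above all acute 24 h libraries, and these were above all healthy ones. The log2 fold change over healthy was 2.43 (SE 0.28, edgeR adjusted p = 7.49e-07) at chronic 24 h, 2.05 (SE 0.28, edgeR adjusted p = 1.59e-05) at chronic 72 h, 1.21 (SE 0.29, edgeR adjusted p = 0.00241) at acute 24 h and 1.16 (SE 0.28, edgeR adjusted p = 0.00342) at acute 7 d. The acute 24 h value fell below 2-fold without acute 24 h replicate 1. The difference between chronic and acute 24 h was called as well (log2 fold change 1.22, SE 0.30, edgeR adjusted p = 0.00491).

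At acute 72 h S100a16 was back near its healthy level, at 9.55, 11.9, 12.3 and 14.5 CPM, and its libraries overlapped with the healthy ones. The change from acute 24 h to 72 h was -0.95 on the log2 scale (SE 0.29, edgeR adjusted p = 0.0195), short of the 2-fold limit. It was called with no filter (-1.02), with the replicate block (-1.05), among higher-depth libraries alone (-1.003) and with only the 2 groups compared (-1.01). At acute 7 d levels were 16.9 to 27.4 CPM again. At chronic 14 d S100a16 was 34.9, 41.5, 25.6 and 18.1 CPM. The change from chronic 24 h was -0.85 (SE 0.27, edgeR adjusted p = 0.0252), so it passed the test on p but not on size.

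The head-to-head neighbours S100a1 and S100a13 were called higher than healthy at acute 7 d and chronic 72 h, while their changes from 24 h to these times were not called. S100a1, best known as a regulator of calcium handling in muscle, was 20.8, 16.6, 18.2 and 24.9 CPM in healthy cells, 38.2, 34.3, 60.6 and 44.9 CPM at acute 7 d and 38.5, 47.7, 46.7 and 78.4 CPM at chronic 72 h. S100a13, which takes part in the release of Fgf1, was 7.88, 6.32, 5.89 and 12.3 CPM in healthy cells, 29.7, 10.7, 26.0 and 20.98 CPM at acute 7 d and 8.66, 13.7, 16.2 and 28.2 CPM at chronic 72 h. The S100a1 libraries of both later groups were above all healthy ones, while those of S100a13 overlapped with them.

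S100a1 was called higher than healthy at acute 7 d (log2 fold change 1.14, SE 0.26, edgeR adjusted p = 0.00223) and at chronic 72 h (1.39, SE 0.26, adjusted p = 0.000438). S100a13 was called at the same times (1.43, SE 0.34, adjusted p = 0.00327 and 1.05, SE 0.34, adjusted p = 0.0293). Neither was called at acute 24 h or chronic 24 h. From chronic 24 h to 72 h the log2 fold change was 0.67 for S100a1 (SE 0.25, edgeR adjusted p = 0.08) and 0.28 for S100a13 (SE 0.33, edgeR adjusted p = 0.646). From acute 24 h to 7 d it was 0.92 and 0.93 (edgeR adjusted p = 0.0113 and 0.0438), short of the 2-fold limit. The chronic 72 h call of S100a13 was lost without healthy replicate 1, 2 or 3 or chronic 72 h replicate 4 and with only the 2 groups compared, and the acute 7 d value of S100a1 fell below 2-fold without acute 7 d replicate 3. At chronic 24 h S100a13 was 8.24 to 17.4 CPM, with the higher-depth libraries at a mean of 17.0 CPM and the lower-depth libraries at 10.6 CPM. In the fit with a term for depth and in that of higher-depth libraries alone its rise over healthy was called there (log2 fold change 1.14 and 1.08, adjusted p = 0.00975 and 0.0355).

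The ratio of S100a1 to S100a13 in CPM was 2.44 ± 0.785 (SD) over the 27 libraries and ranged from 0.895 to 4.45. It was 2.60 ± 0.437 (SD, n = 4) in healthy cells, 1.498 ± 0.545 (n = 4) at acute 72 h and 3.40 ± 0.762 (n = 4) at chronic 72 h.

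S100a10 and S100a11, the annexin partners, were the most abundant of the family per length of transcript in healthy cells. Mean levels there were 347 CPM per kb of exon for S100a11 and 101 CPM per kb for S100a10, against 29.0 for S100a1, 11.3 for S100a13, 6.21 for S100a16 and under 1 for the other genes. S100a11 stayed first in all 7 groups. Neither gene passed the 2-fold limit against healthy cells in any comparison tested, although S100a11 passed on p at acute 24 h (log2 fold change 0.69, SE 0.22, edgeR adjusted p = 0.018) and chronic 24 h (0.76, SE 0.21, adjusted p = 0.00755). Acute 72 h was not tested against healthy. The log2 fold change there was 1.43 (SE 0.21) for S100a11, above 2-fold, and 0.85 (SE 0.21) for S100a10. Among higher-depth libraries alone the chronic 24 h rise of S100a11 was 1.04 (adjusted p = 0.00368) and was called.

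Both genes were highest at acute 72 h. S100a11 was 289, 304 and 269 CPM at acute 24 h and 458, 497, 499 and 458 CPM at acute 72 h. It was 231, 242, 424 and 301 CPM at chronic 24 h and 131, 184, 139 and 270 CPM at chronic 72 h. S100a10 was 129, 158 and 131 CPM at acute 24 h and 178, 231, 239 and 240 CPM at acute 72 h. For both genes the acute libraries at 72 h were all above those at 24 h, and no other library of the series reached the lowest acute 72 h level of its gene. S100a10 was 82.7 to 137 CPM at chronic 24 h and 66.7 to 124 CPM at chronic 72 h, with overlap.

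**Figure D3:**
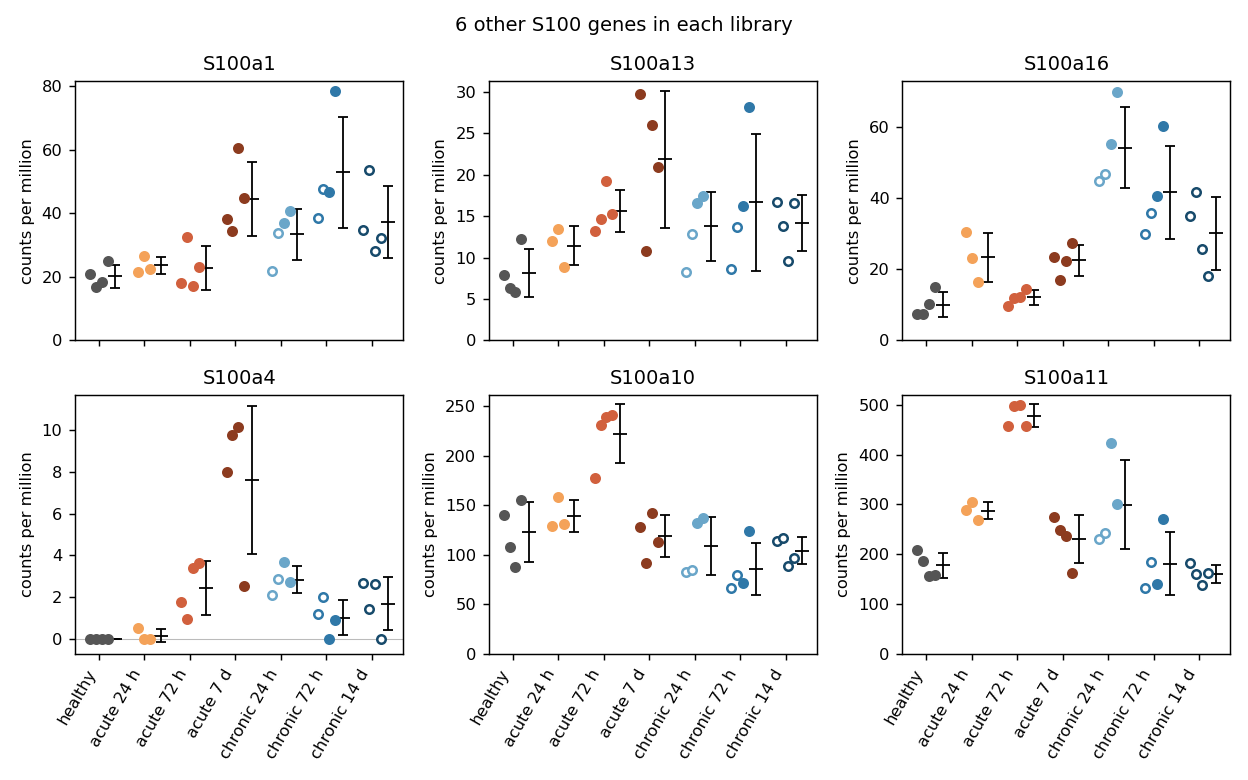
Level in CPM (vertical axes) of S100a1, S100a13, S100a16, S100a4, S100a10 and S100a11 in each library by group (horizontal axes), where open circles are the 8 libraries of lower depth and black bars the mean ± SD. S100a16 peaks at chronic 24 h (44.6 to 69.7 CPM), S100a4 at acute 7 d (2.53 to 10.1 CPM), and S100a10 and S100a11 at acute 72 h (178 to 240 and 458 to 499 CPM).

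Whether the step from 24 h to 72 h differed between the models was tested in the same fit, in a comparison added after the data were seen. S100a11 rose after a single injection (log2 fold change 0.73, SE 0.23, edgeR adjusted p = 0.0206) and fell after the chronic course (-0.73, SE 0.21, edgeR adjusted p = 0.0189), each by less than 2-fold. The difference of the steps, acute minus chronic, was 1.46 (SE 0.31, edgeR adjusted p = 0.00306), and this call was kept without any 1 library and among higher-depth libraries alone (1.48, adjusted p = 0.0207). S100a10 had a difference of 1.02 (SE 0.32, edgeR adjusted p = 0.0391), just above 2-fold, and the call was lost when 1 of 11 of the 15 libraries was left out. It was also lost among higher-depth libraries alone (adjusted p = 0.103), with no filter (0.91, adjusted p = 0.122) and with only the groups compared (adjusted p = 0.0609). With DESeq2 or its size factors (both 0.98), the replicate block (0.96) and a term for depth (0.9995) it passed on p but not on size. S100a4 had a difference of 5.22 (SE 1.47, edgeR adjusted p = 0.0255), which was lost without acute 24 h replicate 2 or 3 or acute 72 h replicate 3 or 4 (adjusted p from 0.0532 to 0.0813). Its fitted value was 9.21 without acute 24 h replicate 1. These 3 of 8 genes tested stood beside 6.46% of all genes called in this direction.

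**Figure D4:**
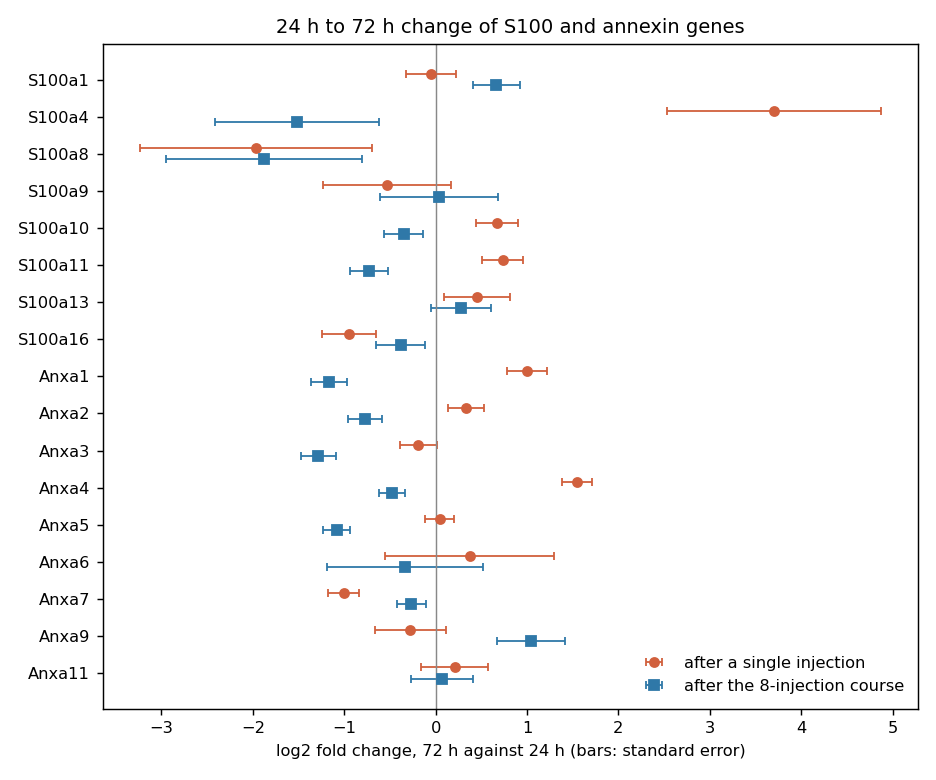
Log2 fold change from 24 h to 72 h (horizontal axis; bars are the SE) of 8 S100 genes and 9 annexin genes (vertical axis) after a single injection (circles) and after the chronic course (squares). S100a11 lies at 0.73 after a single injection and at -0.73 after the course, and S100a4, S100a10, Anxa1, Anxa2, Anxa4, Anxa5 and Anxa6 also lie above 0 after a single injection and below 0 after the course, while S100a1, S100a9 and Anxa9 lie on opposite sides the other way round.

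Annexins are membrane-binding partners of several S100 proteins. Of 12 annexin genes 9 were tested, and the difference of the steps was called higher for 5 of them (Anxa1, Anxa2, Anxa3, Anxa4 and Anxa5), beside 6.46% of all genes. Anxa1, the partner of S100a11, rose from acute 24 h to 72 h (log2 fold change 1.00, SE 0.22, edgeR adjusted p = 0.00159) and fell from chronic 24 h to 72 h (-1.17, SE 0.20, edgeR adjusted p = 0.0003). The difference for Anxa1 was 2.17 (SE 0.30, edgeR adjusted p = 5.35e-05). Anxa2, the partner of S100a10, had a difference of 1.11 (SE 0.27, edgeR adjusted p = 0.00899). Anxa3 and Anxa5 fell after the chronic course with changes after acute injury of -0.19 and 0.05 that did not pass the test.

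Over the whole family, 4 of 8 genes tested were called higher at chronic 24 h than in healthy cells (S100a4, S100a8, S100a9 and S100a16), beside 11.2% of all genes. At chronic 72 h and at acute 7 d 6 of 8 were higher (S100a1, S100a4, S100a8, S100a9, S100a13 and S100a16), beside 7.88% and 9.23% of all genes. At acute 24 h 3 of 8 were higher (S100a8, S100a9 and S100a16), beside 9.41% of all genes, and without acute 24 h replicate 1 only S100a9 was. All of these calls were of a rise. Genes at or near 0 in healthy cells could pass the filter only through the injured groups, so these shares are no sign of a change shared by the family.

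Leaving out S100a6, which was chosen for its rise over the same healthy libraries, the median log2 fold change of the 8 other genes was 1.60 at chronic 24 h, 1.67 at chronic 72 h and 1.30 at acute 7 d, beside medians over all genes of -0.03, 0.00 and 0.01. S100a4 and S100a8 entered at their lower bounds and had passed the filter only through injured groups, so the medians describe these genes and are read no further. At acute 24 h the median was 0.69 over 7 genes, since S100a4 had no bound there, beside -0.12 over all genes. Acute 72 h and chronic 14 d against healthy were the comparisons that the choice used, and nothing is read from their counts. Besides S100a6, the libraries of 5 of 8 genes did not overlap with healthy ones at acute 72 h (S100a4, S100a9, S100a10, S100a11 and S100a13), where 23.6% of all genes did not. At chronic 14 d those of 4 of 8 did not (S100a1, S100a8, S100a9 and S100a16), where the share of all genes was 13.3%. Chronic 14 d held only libraries of lower depth, and with a term for depth its log2 fold change over healthy went from 0.81 to 1.64 for S100a13, from -0.24 to 0.31 for S100a10 and from -0.14 to 0.36 for S100a11.

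Comparisons between injured groups called 0 to 3 genes of the family each. From acute 24 h to acute 7 d 2 of 9 were higher (S100a4 and S100a6), beside 17.8% of all genes, and from acute 24 h to acute 72 h 1 of 8 was (S100a4), beside 11.2%. At chronic 24 h 3 of 9 were higher than at acute 24 h (S100a4, S100a6 and S100a16), beside 10.9%. Of 9 genes, from chronic 24 h to chronic 72 h 1 was lower (S100a6), beside 3.65% of all genes. From chronic 24 h to chronic 14 d edgeR called 0 of 8 at an adjusted p below 0.05 and above 2-fold, beside 12.8% of all genes called in either direction. At an unadjusted p below 0.05 there were 2, and DESeq2 called 0. S100a11 (log2 fold change -0.90, SE 0.21, edgeR adjusted p = 0.00318) and S100a16 passed on p alone there. S100a6, without a test, was -2.77 (SE 0.59), with no overlap.

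Between chronic 72 h and acute 7 d edgeR called 0 of 9, beside 0.432% of all genes. At an unadjusted p below 0.05 there were 3, and DESeq2 called 1. The level of S100a4 at chronic 72 h (log2 fold change -2.93, SE 0.91, edgeR adjusted p = 0.18) had no overlap with acute 7 d and was called lower only with DESeq2 (-2.90, adjusted p = 0.0472), and S100a16 was 0.88 (SE 0.27, edgeR adjusted p = 0.159).

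Among 20 receptors and partners of S100 proteins, 4 were higher at chronic 24 h than in healthy cells (Cd44, Sdc1, Cd36 and Alcam), beside 11.2% of all genes, with log2 fold changes up to 3.31 (SE 0.21, edgeR adjusted p = 1.33e-10) for Cd44, the hyaluronan receptor. At acute 24 h Cd44 was also higher (1.85, SE 0.21, edgeR adjusted p = 8.07e-07), while Alcam was lower (-1.33, SE 0.20, edgeR adjusted p = 1.92e-05). At chronic 24 h relative to acute 24 h 4 partners were higher (Cd36, Alcam, Sdc1 and Cd44), beside 10.9% of all genes, with Cd36 the most at 4.02 (SE 0.74, edgeR adjusted p = 0.000435). Ppp5c, a phosphatase, was lower, beside 3.05% of all genes. Myh9, a non-muscle myosin bound by S100a4, was lower at chronic 72 h than at chronic 24 h (-1.68, SE 0.25, edgeR adjusted p = 7.50e-05).

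Tlr4 and Ager, receptors for S100a8 and S100a9, were not called at chronic 24 h. Tlr4 was 36.0 ± 4.33 CPM (SD, n = 4) in healthy cells and 29.2 ± 8.05 CPM (SD, n = 4) at chronic 24 h, and edgeR called no change (log2 fold change -0.30, SE 0.27, adjusted p = 0.434). Ager was under 1 CPM on average in both groups. At chronic 24 h Ahnak, a scaffold bound by S100a10, was at -0.25 on the log2 scale (SE 0.29, edgeR adjusted p = 0.559). Cacybp, bound by S100a6, was at 0.49 (SE 0.31, edgeR adjusted p = 0.239). At other times Ahnak was called lower at chronic 72 h than in healthy cells, and Tlr4 higher at acute 7 d than at acute 24 h. Fgf1 had -0.53 (SE 0.25, adjusted p = 0.118) at chronic 24 h and rose from there to chronic 14 d (1.18, SE 0.26, edgeR adjusted p = 0.00171).

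At chronic 24 h Anxa2 was 373 ± 115 CPM against 422 ± 48.0 CPM in healthy cells (SD, n = 4 each) and was not called. Of the 9 annexins 2 were called higher there (Anxa3, 1.75, SE 0.19, edgeR adjusted p = 3.64e-07, and Anxa4), beside 11.2% of all genes. Anxa9 was called lower (-2.10, SE 0.37, edgeR adjusted p = 0.000141), beside 8.11%. Anxa1 passed on p but not on size (0.93, SE 0.20, adjusted p = 0.000971). At acute 24 h the same directions were called for Anxa3 (1.57, SE 0.20, edgeR adjusted p = 3.34e-06) and Anxa9 (-1.79, SE 0.40, adjusted p = 0.00128), and at chronic 24 h relative to acute 24 h Anxa4 alone was higher (2.14, SE 0.17, edgeR adjusted p = 1.28e-08). From chronic 24 h to chronic 14 d Anxa3 (-1.63, SE 0.19, edgeR adjusted p = 2.63e-06), Anxa1 and Anxa5 fell and Anxa9 rose (1.08, SE 0.37, adjusted p = 0.0383). The calls of Anxa1 and Anxa5 were lost with DESeq2 size factors. A further 4 partners fell over this time (Sdc1, Cd44, Myh9 and Capn2), beside 6.11% of all genes, with Sdc1 the most at -1.65 (SE 0.46, edgeR adjusted p = 0.0121).

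S100b and the remaining S100 genes of the mouse gave little or nothing. S100b, known from glial cells, had counts in 8 of 27 libraries and at most 21 (1.84 CPM, chronic 24 h replicate 3), and it overlaps with Dip2a on the opposite strand, so that its reads are uncertain. S100a2, S100a5, S100g and S100z had no counts, and S100a3, S100a7a and S100a14 reached at most 3, 7 and 5. S100a7l2 was not matched by symbol. S100a11 has a processed pseudogene, S100a11-ps, which held 8 counts in all 27 libraries together.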

How the data were processed

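The deposited file holds raw gene counts of 27 libraries, which the authors made from single-end reads of 75 bases with STAR against GRCm38.p6 and StringTie. How the assembly became counts, and whether strand was used, is not given in the sources used here. Gene symbols and positions came from GENCODE M21, in which 105 of 53299 gene identifiers had no entry. Counts were filtered with filterByExpr by group, scaled by TMM and fitted over all 27 libraries with a mean per group by edgeR 4.0.16 (R 4.3.3, quasi-likelihood test, robust). Calls needed a change above 2-fold and a p below 0.05 after Benjamini-Hochberg adjustment over the 18758 genes tested. CPM are counts scaled to a TMM-adjusted library total of 1000000. The genes of the family and the lists of annexins, partners and markers were chosen with earlier results of these data known. All 10 S100 genes were named, and of the annexins and partners Anxa1, Anxa2, Ahnak, Cacybp, Ager, Tlr4 and Fgf1 were, with the highest and lowest called in each planned comparison. Others, such as Anxa3 and Anxa5 in the step from 24 h to 72 h, were named after their values were seen, to account for counts. In counts simulated for the chronic 24 h comparison, the fit called 143 of 200 genes changed by 2 on the log2 scale, with 2 false calls among 18758 genes. For acute 24 h it called 145 of 200, with 6 false calls. All other genes had a mean shared by all groups in these counts, whereas many more genes were called in the real data. The rates therefore do not carry over to the real comparisons. Alternatives were DESeq2 1.42.0, other scalings, filters and thresholds, a term for depth, a replicate block and leaving out each library.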

Additional observations from a re-analysis of the deposited data

Results flagged for a closer look

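In 7 of 56 combinations of gene and group with 4 libraries, 1 library stood apart from the other 3 by more than the Dixon limit. The chance rate of that limit, about 1 in 20, is for continuous values. Any count in 1 library beside 0 in the other 3 passes the limit, so the 7 cannot be set against that rate. S100a9 was 1.63 CPM in healthy replicate 1 and 0 in the other 3, and 3.45 CPM in acute 72 h replicate 1 against 5.11 to 5.36 CPM in the others. S100a10 was 178 CPM in acute 72 h replicate 1, below the 231 to 240 CPM of the others. The 4 remaining cases were libraries in which S100b had counts when it was near 0 elsewhere: acute 72 h replicate 2 (0.259 CPM, 3 counts), acute 7 d replicate 1 (1.13 CPM, 14 counts), chronic 24 h replicate 3 (1.84 CPM, 21 counts) and chronic 72 h replicate 2 (0.713 CPM, 5 counts).

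The log2 change from 24 h to 72 h differed between a single injection and the chronic course, by edgeR's test of the difference itself, for S100a11 (1.46, adjusted p = 0.00306), S100a4 (5.22, adjusted p = 0.0255) and S100a10 (1.02, adjusted p = 0.0391). This comparison was added after the data were seen. The call of S100a10 was lost without any 1 of 11 of the 15 libraries and under other scalings, filters and thresholds. That of S100a4 was lost without any 1 of 4.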

How the results depend on the processing

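Depth limits these results most where counts are low: S100a4, S100a8 and S100b had at most 126, 124 and 21 counts in a library, and a count of 0 says little about them. Calls near the 2-fold limit moved with small changes of scaling. Samples of 1 number in different groups did not vary together on the median (correlation of deviations 0.0056 over 78 pairs, from -0.197 to 0.166). At chronic 24 h and chronic 72 h the same replicate numbers held the libraries of lower depth. A median over all pairs therefore cannot exclude that the numbers pair some libraries. With the replicate block, from acute 24 h the calls were 1 (not 2) to acute 7 d and 2 (not 1) to acute 72 h.

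The 4 genes higher at chronic 24 h than in healthy cells were 4 to 5 when 1 library was left out. For chronic 72 h the 6 calls were 4 to 6 without 1 library, and 3 with a test against a 2-fold minimum or with the 2 groups alone. For acute 24 h the 3 calls were 1 to 3, and 1 under the same 2 alternatives. For acute 7 d the 6 calls were 5 to 6, and 3 against a 2-fold minimum. From chronic 24 h to chronic 14 d the 0 calls were 0 to 1, 2 with no fold minimum and 1 (S100a9) with the 2 groups alone. From chronic 24 h to 72 h the 1 call was 0 to 1, 2 with no fold minimum, and 0 against a 2-fold minimum, with no filter, among higher-depth libraries or with the 2 groups alone. From acute 24 h to acute 7 d the 2 calls were 1 to 3, 4 with no fold minimum or with library size alone, and 1 against a 2-fold minimum or with no filter. From acute 24 h to 72 h the 1 call was 0 to 1, 4 with no fold minimum, 0 against a 2-fold minimum, and 2 with no filter, among higher-depth libraries or with the 2 groups alone. Chronic against acute 24 h kept 2 to 3 of 3 calls, and 1 against a 2-fold minimum. Chronic 72 h against acute 7 d had 0 calls without any 1 library and 1 with a term for depth or with DESeq2. The 3 differences of the step from 24 h to 72 h were 1 to 3, and 0 against a 2-fold minimum. Partner calls were 7 to 8 at chronic 24 h (7 in full), 4 to 7 at acute 24 h (4 in full, 7 without acute 24 h replicate 3), 5 to 9 from chronic 24 h to 14 d (9 in full, 5 without chronic 24 h replicate 4) and 5 to 7 between chronic and acute 24 h (6 in full). The causes were not tested.

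Apart from the comparisons that the choice of the family used, log2 fold changes that turned sign under other settings were not called. For S100a10 they were 0.064 (term for depth) and 0.14 (higher depth) at chronic 24 h against healthy, 0.047 (library size alone) at acute 7 d against healthy, and 0.10 (library size alone), 0.24 (term for depth) and 0.0084 (the 2 groups alone) from chronic 24 h to 14 d. With library size alone S100a16 was 0.058 to acute 7 d and S100a1 0.066 to acute 72 h, both from acute 24 h. Between chronic and acute 24 h S100a9 was -0.29 (higher depth) and S100a11 -0.013 (no filter). Between chronic 72 h and acute 7 d S100a9 was 0.049 (replicate block) and S100a13 0.026 (higher depth). The S100a13 difference of the step was -0.014 (higher depth). At chronic 14 d against healthy, without a test, a term for depth gave 0.31 for S100a10 and 0.36 for S100a11.

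Leaving out 1 library turned signs too, for some of the same values and for others, none of them called. The ranges were -0.23 to 0.17 for S100a11 at chronic 72 h and -0.18 to 0.081 for S100a10 at acute 7 d against healthy, and -0.046 to 0.29 for S100a1 at acute 72 h against healthy, which was not tested. From chronic 24 h to 14 d they were -0.030 to 0.32 for S100a1, -0.18 to 0.11 for S100a10 and -0.14 to 0.23 for S100a13, and to 72 h -0.22 to 0.51 for S100a9 and -0.10 to 0.49 for S100a13. From acute 24 h they were -0.24 to 0.19 for S100a16 (7 d) and -0.27 to 0.049 for S100a1 (72 h). They were -0.15 to 0.17 for S100a11 between chronic and acute 24 h, -0.0071 to 0.43 for S100a1 and -0.22 to 0.40 for S100a9 between chronic 72 h and acute 7 d, and -1.31 to 0.77 for S100a8 and -0.068 to 0.55 for S100a13 in the difference of the step.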
